A study of Homo sapiens with 6 samples.

Results

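SNORD48, SNORD61, SNORD68, SNORD72, SNORD95 and SNORD96A are C/D box small nucleolar RNAs (snoRNAs) that are often measured beside microRNAs in q-RT-PCR to correct for differences in input RNA. They were picked by name, and all 6 had a row among the 28846 annotated entries of each count table, of which 452 were snoRNAs. All 6 were also among the 230 snoRNAs that passed the filter on low counts. K562, an erythroleukemia cell line, was transduced with the lentiviral vector SIEW expressing only GFP (control) or with SIEW RUNX1 expressing human RUNX1 and GFP, and small RNA was sequenced after 10 days in culture. Each condition had 3 independent transductions, so that both conditions carried the vector and GFP and differed in the RUNX1 transgene, and all cells belonged to 1 cell line. The comparison asked here is whether the read counts of RNAs that serve as references held a constant level between the conditions and between replicates.

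C/D box snoRNAs are short stable RNAs that guide 2′-O-methylation of ribosomal RNA. A pair of short motifs, box C and box D, lies near the ends and is bound by the core proteins of the particle, among them the methyltransferase fibrillarin, and the bases before box D pair with the rRNA target. Most human snoRNAs are cut out of introns of host genes, many of which encode ribosomal or RNA-binding proteins. As a q-RT-PCR reference such an RNA is assumed not to respond to the treatment, since any change in its level is passed on with the opposite sign to every RNA read against it.

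The 6 transcripts are shown because the assays and the reads both rest on these sequences. They are the GENCODE 29 transcripts of the same name (GRCh38, sense strand, DNA letters), and capitals mark box C (TGATGA, first match) and box D (CTGA, last match within the RefSeq GRCh38.p14 span).
SNORD48: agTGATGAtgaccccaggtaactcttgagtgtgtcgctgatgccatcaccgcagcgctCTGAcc
SNORD61: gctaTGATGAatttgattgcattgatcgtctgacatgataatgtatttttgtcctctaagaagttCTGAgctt
SNORD68: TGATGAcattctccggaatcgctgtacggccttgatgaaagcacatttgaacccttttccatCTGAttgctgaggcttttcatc
SNORD72: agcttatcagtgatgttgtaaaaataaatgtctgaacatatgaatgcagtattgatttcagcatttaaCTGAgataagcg
SNORD95: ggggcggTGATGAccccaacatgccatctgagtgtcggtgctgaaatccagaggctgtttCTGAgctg
SNORD96A: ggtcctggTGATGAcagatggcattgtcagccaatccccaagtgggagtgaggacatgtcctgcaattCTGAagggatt

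TGATGA was found in 5 of the 6 transcripts and not in SNORD72. On the sense strand, it was found in 212 of the 275 annotated SNORD transcripts (77.1%), and CTGA in 98.2% of them. SNORD48 (chr6:31835263-31835326, plus strand, 64 bases) lies in C6orf48, a host gene that also holds SNORD52. SNORD61 (chrX:136879199-136879271, minus strand, 73 bases) lies in RBMX, which encodes an RNA-binding protein. SNORD68 (chr16:89561434-89561517, plus strand, 84 bases) lies in RPL13, and SNORD72 (chr5:40832656-40832735, minus strand, 80 bases) in RPL37, both ribosomal protein genes. SNORD95 (chr5:181243312-181243379, minus strand, 68 bases) and SNORD96A (chr5:181241814-181241892, minus strand, 79 bases) share the host RACK1, which encodes a scaffold protein of the ribosome. No exon of RPL37 covers SNORD72, and for the other 5 between 1 and 4 annotated transcripts of the host have an exon over the snoRNA. Whether the remaining host transcripts span the snoRNA with an intron was not tested. The count tables name rows without positions, and the study's own annotation ties the name SNORD95 to a locus on another chromosome than RACK1. Which locus gave the SNORD95 reads was therefore not tested. SNORD96B, a near copy of SNORD96A on another chromosome that shares 4 stretches of 18 bases with it, had only 1 to 4 counts per library.

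Total counts were 1618248 to 6193319 in the control and 7918551 to 15245007 in the RUNX1 libraries, so control replicate 1 was the shallowest. Counts were scaled with TMM factors of 1.23 to 1.31 in control and 0.735 to 0.866 in RUNX1 libraries and expressed as CPM, which is the count divided by the TMM-scaled total. RUNX1 replicate 3 stood apart from the other 2 RUNX1 libraries, since its counts differed from theirs with a chi-square of 545 and 372 per degree of freedom. The value between RUNX1 replicates 1 and 2 was 67.4, and between control libraries it was 11.2 to 25.9. The 3 erythroid marker microRNAs miR-451a, miR-144-5p and miR-486-5p summed to 4315 to 4951 CPM in control and 2107 to 3444 CPM in RUNX1 libraries, and all 3 were down-regulated, whereas miR-144-3p from the same precursor as miR-144-5p rose by 1.02 on the log2 scale (adjusted p = 0.000221, edgeR). The 9 markers of muscle, liver, epithelium and neurons summed to 37.8 to 46.3 CPM and 153 to 173 CPM, with miR-206 and miR-124-3p at 0 throughout. Only 4 of the 9 markers passed the filter on low counts, and all 4 were up-regulated (miR-1, miR-200c-3p, miR-141-3p and miR-205-5p). Their part in the results was not tested. Small RNA counts do not measure the RUNX1 mRNA.

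Upon RUNX1 over-expression 4 of the 6 reference snoRNAs were altered. With TMM SNORD61 and SNORD96A rose, SNORD68 and SNORD95 fell, and SNORD48 and SNORD72 did not pass the thresholds (edgeR quasi-likelihood test, with a P-value below 0.05 and at least 0.5 in either direction on the log2 scale). By the same rule 57.6% of the 947 tested small RNAs were altered (28.0% up, 29.6% down), and 59.1% of the 230 tested snoRNAs, so 4 of 6 is near the background. The split between rises and falls depended on the scaling. With library size alone 0 members rose and 3 fell (SNORD48, SNORD68 and SNORD95), SNORD61 was at 0.40 and SNORD96A at -0.076, and of all tested small RNAs 641 were altered, 120 up and 521 down. In cultures sequenced in bulk, a change in all cells and a change in the share of cells with more or less of the RNA cannot be told apart. The median log2 fold change of the members was -0.03, beside -0.06 for all tested small RNAs, and the median size of the change was 0.76 and 0.75.

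SNORD68, which guides methylation of both the small and the large subunit rRNA and was among the q-RT-PCR assays of the study, had the largest change of the members. It was counted 1134, 4321 and 3821 times in control replicates 1, 2 and 3, or 542, 536 and 503 CPM, and 1690, 866 and 968 times in RUNX1 replicates, or 147, 139 and 141 CPM. The groups were far apart and the replicates of each group lay close together. The level fell by 1.89 on the log2 scale (SE 0.121, adjusted p = 2.89e-06, edgeR), from 527 ± 21.1 to 142 ± 4.10 CPM (SD, n = 3 each), so that it was 3.71-fold higher in control.

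SNORD95, a guide for the large subunit rRNA, also fell. It stood at 287, 332 and 323 CPM in control and 169, 146 and 198 CPM in RUNX1 libraries. All RUNX1 libraries were below all control libraries. The log2 fold change was -0.88 (SE 0.149, adjusted p = 0.000849, edgeR), from 314 ± 23.7 to 171 ± 25.8 CPM (SD, n = 3 each).

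SNORD61, a guide for the small subunit rRNA, rose from 137, 121 and 136 CPM in control to 298, 314 and 237 CPM in RUNX1 libraries. The groups did not overlap, and RUNX1 replicate 3 was the lowest of its group. The log2 fold change was 1.11 (SE 0.149, adjusted p = 0.000214, edgeR), or 2.15-fold.

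SNORD96A, a guide for the short rRNA of the large subunit, stood at 173, 186 and 206 CPM in control and 386, 276 and 217 CPM in RUNX1 libraries. RUNX1 replicate 3 was just above the highest control, while replicate 1 was far above. The log2 fold change of 0.64 (SE 0.205, adjusted p = 0.0238, edgeR) depended on the libraries. It was 0.90 without RUNX1 replicate 3, and 0.42 and below the threshold without RUNX1 replicate 1. It was also below the threshold with TMM on microRNAs (0.44) and with library size alone (-0.076).

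SNORD48, a guide for the large subunit rRNA that is known as RNU48 in assays and was another of the study's assays, stood at 8232, 7732 and 9287 CPM in control and 5962, 6463 and 7999 CPM in RUNX1 libraries. The groups overlapped through RUNX1 replicate 3. The log2 fold change was -0.31 (SE 0.144, adjusted p = 0.0962, edgeR) with a 95% interval from -0.63 to 0.02, which includes decreases beyond the threshold of 0.5. Without RUNX1 replicate 3 it was -0.35 with an unadjusted P-value of 0.00089, still below the fold threshold.

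SNORD72, predicted to guide methylation of the large subunit rRNA, stood at 92.8, 88.0 and 96.7 CPM in control and 73.2, 83.4 and 174 CPM in RUNX1 libraries. RUNX1 replicates 1 and 2 were below every control library and replicate 3 was above them all. The log2 fold change was 0.25 (SE 0.295, adjusted p = 0.487, edgeR), with a 95% interval from -0.42 to 0.92, and -0.16 without RUNX1 replicate 3. Neither SNORD48 nor SNORD72 is thereby shown to be constant.

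**Figure D1:**
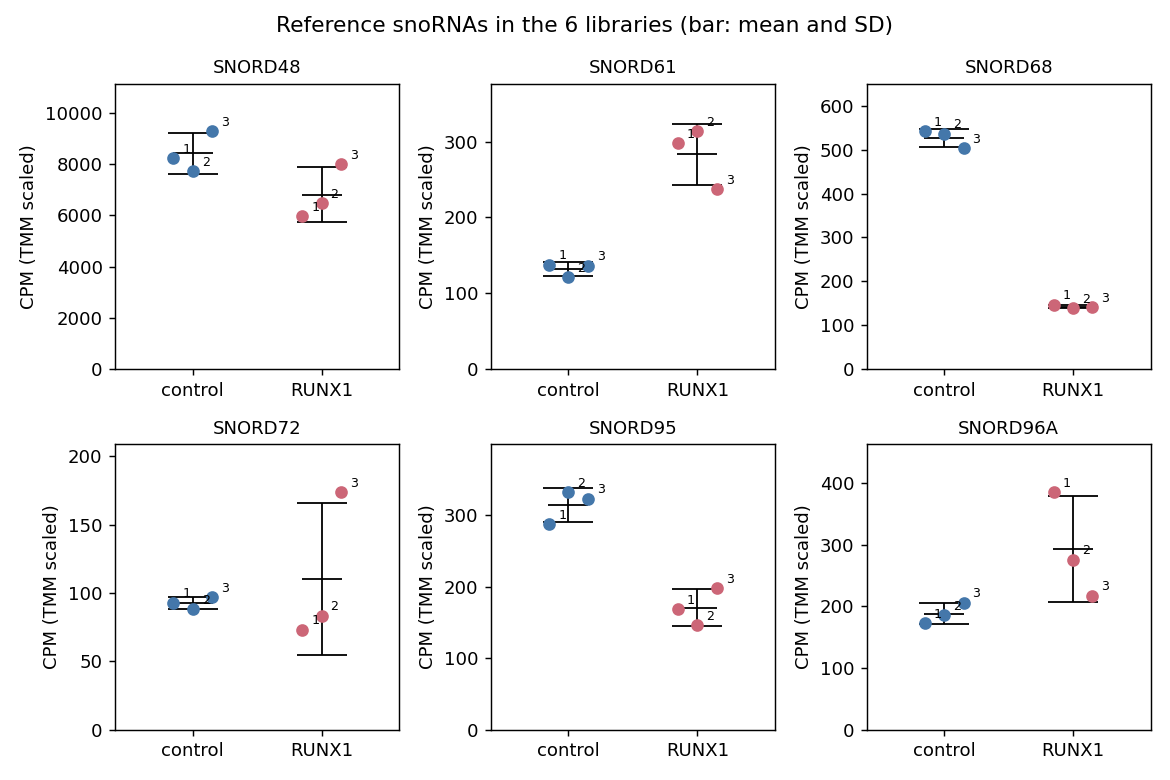
TMM-scaled CPM of the 6 reference snoRNAs (one panel each, own vertical axis from 0) in 3 control and 3 RUNX1 libraries, with dots numbered by replicate and the mean and SD as bars. The groups are separate for SNORD61, SNORD68, SNORD95 and SNORD96A and overlap for SNORD48 and SNORD72, where RUNX1 replicate 3 reaches 7999 and 174 CPM.

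The CPM of the conditions did not overlap for 4 of the 6 members, and for 64.8% of all tested small RNAs. Per base of transcript, SNORD48 had by far the highest counts of the members, at 132 CPM per base in control and 106 in RUNX1 samples. Counts also depend on capture, so the order below is one of counts and not of RNA amounts. In control it was followed by SNORD68 (6.28), SNORD95 (4.62), SNORD96A (2.38), SNORD61 (1.8) and SNORD72 (1.16). These means stood in the same order in each control library, and neighbouring members did not overlap between libraries. In RUNX1 samples the order below SNORD48 became SNORD61 (3.88), SNORD96A (3.71), SNORD95 (2.51), SNORD68 (1.69) and SNORD72 (1.38). There the ranges of SNORD61 and SNORD96A overlapped, as did those of SNORD95 with SNORD96A and with SNORD72, and of SNORD68 with SNORD72. By CPM per base SNORD68 thus went from the second to the fifth place and SNORD61 from the fifth to the second. By CPM not divided by length, SNORD96A (293) stood above SNORD61 (283) in RUNX1 samples. The members are of unlike depth, and the counting error of the shallowest library ranged from 0.762% for SNORD48 to 7.18% for SNORD72.

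A scaling shifts all RNAs of a library alike, so it moves the change of a member relative to 0 and not, by construction, relative to the other RNAs. With RLE factors, TMM on snoRNAs or TMM on microRNAs each member kept the sign of its change, while with library size alone SNORD72 (-0.41) and SNORD96A (-0.076) turned negative. The calls of SNORD96A (with TMM on microRNAs and library size alone) and of SNORD61 (with library size alone) were lost. Library size alone moved the median log2 fold change of all tested small RNAs by -0.70, TMM on microRNAs by -0.19 and TMM on snoRNAs by 0.17. Set against the median of all tested small RNAs, the log2 fold changes were -0.24 to -0.23 for SNORD48, 1.16 to 1.18 for SNORD61, -1.83 to -1.82 for SNORD68, 0.30 to 0.35 for SNORD72, -0.82 to -0.81 for SNORD95 and 0.69 to 0.72 for SNORD96A.

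**Figure D2:**
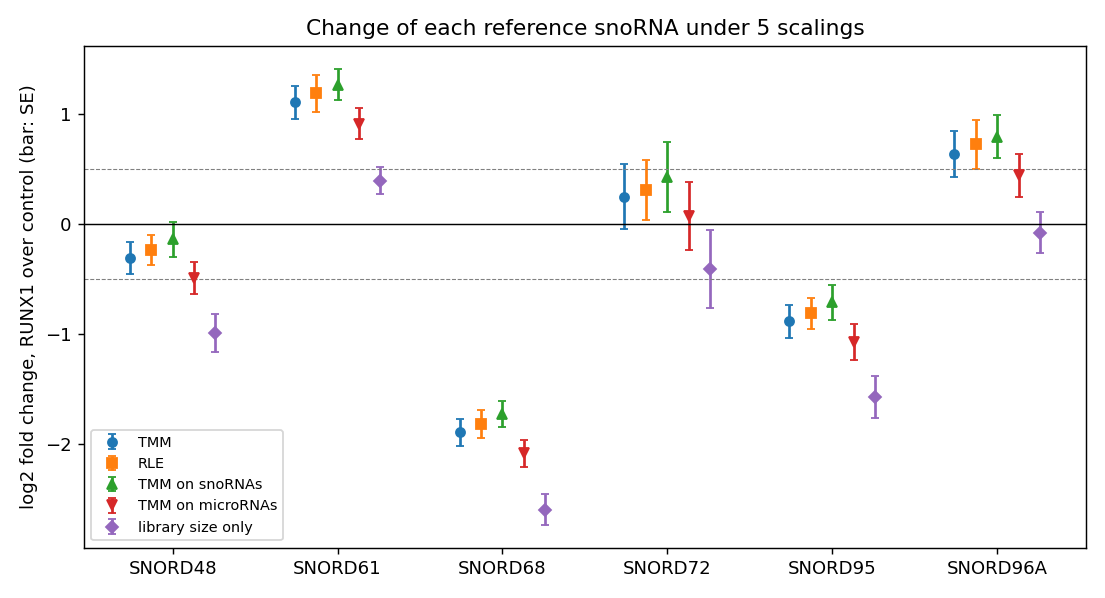
Log2 fold change, RUNX1 over control, of each reference snoRNA with its SE (bars) under 5 scalings of the libraries; dashed lines mark the threshold of 0.5 in either direction. All members shift together between scalings, SNORD68 and SNORD95 stay below -0.5 in all of them, and SNORD72 and SNORD96A are below 0 with library size only.

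Within a condition the members differed in how closely replicates agreed. The coefficient of variation of CPM in control samples was 4.0% for SNORD68, 4.70% for SNORD72, 7.02% for SNORD61, 7.54% for SNORD95, 8.91% for SNORD96A and 9.43% for SNORD48. In RUNX1 samples it was 2.88% for SNORD68, 14.3% for SNORD61, 15.1% for SNORD95, 15.6% for SNORD48, 29.2% for SNORD96A and 50.3% for SNORD72. The other 5 members varied more between RUNX1 than between control replicates. This rested in part on RUNX1 replicate 3. Without it the RUNX1 value was 3.64% for SNORD61, 3.99% for SNORD68, 5.70% for SNORD48, 9.16% for SNORD72, 10.1% for SNORD95 and 23.5% for SNORD96A.

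By the measured values SNORD68 was therefore both the member with the closest replicates and the one with the largest change. The counting error of the shallowest library was 2.97% in control and 3.40% in RUNX1 samples for SNORD68, and 7.18% in control for SNORD72. Variation so near the counting error ranks these members only loosely. The SD of log2 CPM of SNORD68 within conditions was 0.05, and only 3 of the 230 tested snoRNAs had a lower one. Over all 6 samples it was 1.03, with 201 snoRNAs lower. SNORD72 had 0.48 within conditions (215 snoRNAs lower) and 0.43 over all samples (112 lower), but 0.094 and 0.15 without RUNX1 replicate 3, so that its wide spread came from 1 library. SNORD48 had 0.18 within and 0.24 over all samples (44 lower). SNORD61 had 0.17 and 0.62, SNORD95 0.17 and 0.51, and SNORD96A 0.31 and 0.43. Within conditions and without RUNX1 replicate 3, SNORD68 was still lowest at 0.058, SNORD61 was at 0.089, SNORD48 and SNORD95 at 0.12 and SNORD96A at 0.22. The medians of the tested snoRNAs were 0.21 and 0.45. By the SD over all samples, SNORD48, SNORD72 and SNORD96A were below the median snoRNA and SNORD61, SNORD68 and SNORD95 above it.

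**Figure D3:**
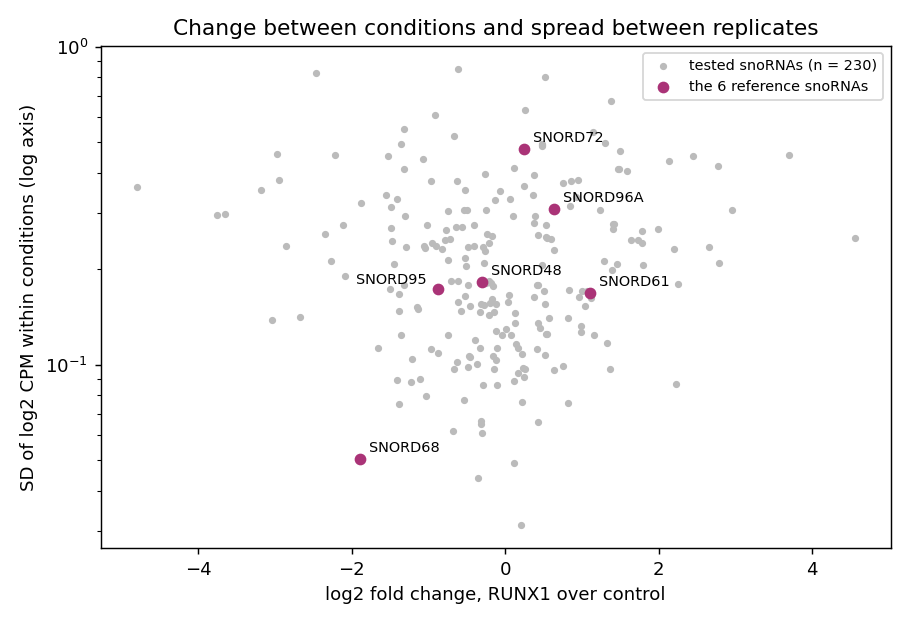
Each dot is 1 of 230 tested snoRNAs, with the log2 fold change (RUNX1 over control) on the horizontal axis and the SD of log2 CPM within conditions on the vertical log axis; the 6 reference snoRNAs are named. SNORD68 sits at the lower left, with a change of -1.89 and an SD of 0.05, SNORD72 has the highest SD of the 6 (0.48), and SNORD48 lies near no change with an SD of 0.18.

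Ratios of members within a library need no scaling. Each is a ratio of counts (0.5 added to each), which also depends on length and capture, so that only its change between conditions is compared. Of the 15 ratios, 12 did not overlap between the conditions, whereas of all ratios of 2 tested snoRNAs 72.9% did not. Each of the 12 had p = 0.1 in an exact two-sided permutation test, the smallest that 3 samples against 3 allow (0.125 adjusted over the 15 pairs), so no ratio can pass 0.05.

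The ratio of SNORD61 to SNORD68 moved most. It was 0.253, 0.226 and 0.271 in control and 2.03, 2.26 and 1.68 in RUNX1 replicates, so that the less counted of the pair became the more counted in every library. The change was 7.93-fold, or 2.99 on the log2 scale (pooled SD 0.18). SNORD96A over SNORD68 changed 5.63-fold in the same direction, SNORD72 over SNORD68 4.09-fold and SNORD61 over SNORD95 3.96-fold.

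SNORD48 over SNORD68, the pair that the study's assays hold, was 15.2, 14.4 and 18.5 in control and 40.7, 46.6 and 56.6 in RUNX1 replicates. The change of any RNA from control to RUNX1 samples thus came out 2.98-fold higher when it was read against SNORD68 than against SNORD48. SNORD48 over SNORD95 changed least among the ratios that did not overlap after SNORD48 over SNORD72. It was 28.6, 23.3 and 28.8 in control and 35.4, 44.2 and 40.5 in RUNX1 replicates, a difference of 0.57 on the log2 scale (pooled SD 0.17). SNORD48 over SNORD72 was 88.5, 87.8 and 96.0 in control and 81.4, 77.5 and 46.0 in RUNX1 replicates, a difference of -0.45 (pooled SD 0.33).

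The 3 ratios that overlapped were those among SNORD61, SNORD72 and SNORD96A. SNORD61 over SNORD96A was 0.795, 0.650 and 0.663 in control and 0.772, 1.14 and 1.09 in RUNX1 replicates (difference 0.49 on the log2 scale, exact permutation p = 0.2). SNORD61 over SNORD72 was 1.48, 1.37 and 1.41 in control and 4.07, 3.76 and 1.37 in RUNX1 replicates (exact permutation p = 0.4). SNORD72 over SNORD96A was 0.538, 0.473 and 0.469 in control and 0.190, 0.302 and 0.800 in RUNX1 replicates (exact permutation p = 0.5). In the ratios with SNORD72, RUNX1 replicate 3 lay apart from the other 2 replicates, and without it 14 of the 15 ratios did not overlap.

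**Figure D4:**
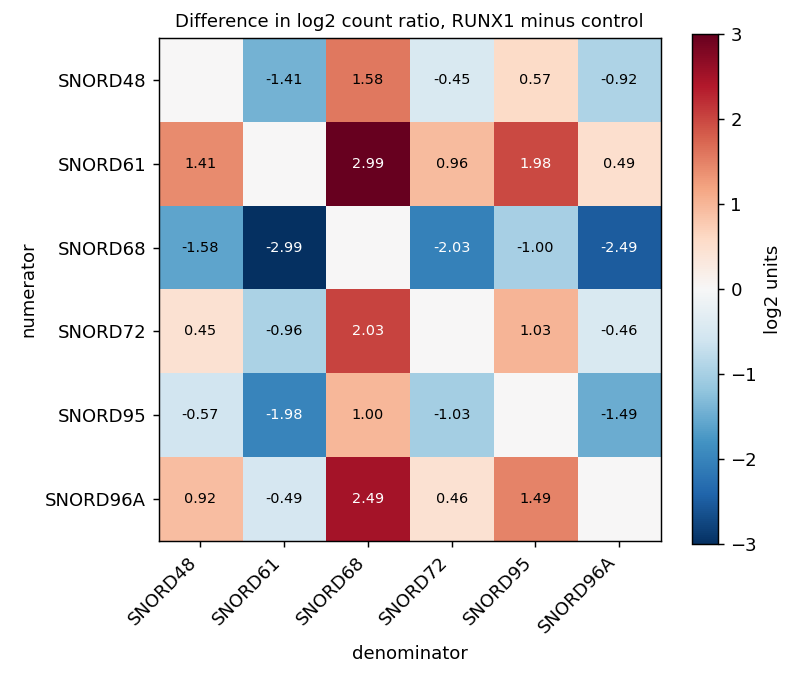
Difference in the mean log2 count ratio, RUNX1 minus control, for each pair of reference snoRNAs, with the numerator in rows and the denominator in columns (red, ratio higher in RUNX1). The SNORD68 column is positive throughout, from 1.00 with SNORD95 to 2.99 with SNORD61, and the smallest difference is 0.45 in size, between SNORD48 and SNORD72.

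A stability value was taken as the mean over the other 5 members of the SD of the log2 ratio, where a lower value is a more constant RNA. Over all 6 samples it was 0.616 for SNORD48, 0.719 for SNORD95, 0.744 for SNORD72, 0.798 for SNORD96A, 0.941 for SNORD61 and 1.14 for SNORD68. SNORD48 had the lowest value of the 6 also with any 1 replicate left out, but without RUNX1 replicate 3 SNORD72 came to the same 0.580 after rounding. In the control samples alone the members were alike, at 0.0995 for SNORD72 to 0.154 for SNORD68. In the RUNX1 samples alone the lowest value was that of SNORD68 (0.348) and the highest that of SNORD72 (0.719).

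A member moves the values of the other 5, so the same measure was also taken against all 230 tested snoRNAs. It was 0.641 for SNORD48 (48 snoRNAs lower), 0.735 for SNORD95 (111 lower), 0.757 for SNORD96A (120 lower), 0.789 for SNORD72 (127 lower), 0.864 for SNORD61 (149 lower) and 1.10 for SNORD68 (193 lower). The median snoRNA had 0.744. SNORD48 and SNORD95 were below it and the other 4 members above it.

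Both pairs of snoRNAs that share a host gene by the annotation moved apart. SNORD96A over SNORD95, both in RACK1 by the annotation, was 0.601, 0.559 and 0.638 in control and 2.29, 1.89 and 1.10 in RUNX1 replicates. SNORD52 over SNORD48, both in C6orf48, was 0.292, 0.274 and 0.233 in control and 1.05, 1.11 and 0.539 in RUNX1 replicates. The groups did not overlap in either, and 72.9% of all ratios of 2 tested snoRNAs did not. Non-overlap is thus not particular to pairs of 1 host, and the locus of the SNORD95 reads was not tested. The differences were 1.49 and 1.69 on the log2 scale, with p = 0.1 each (exact permutation test, the smallest possible). Without RUNX1 replicate 3 they were 1.8 and 2.02. SNORD52 itself rose by 1.41 on the log2 scale (SE 0.185, adjusted p = 0.000186, edgeR). Its transcript (chr6:31837076-31837142, plus strand, GENCODE 29 on GRCh38) is shown as the host neighbour of SNORD48, with the boxes in capitals as above.
SNORD52: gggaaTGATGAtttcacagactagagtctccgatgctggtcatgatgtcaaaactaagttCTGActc

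For each member the snoRNA with the most similar profile was the one with the highest Pearson correlation of log2 CPM over the 6 samples, which share library and depth. These were SNORD88B for SNORD48 (r = 0.956), SNORD101 for SNORD61 (r = 0.997), SNORD53 for SNORD68 (r = 0.998), SNORD13 for SNORD72 (r = 0.868), SNORD21 for SNORD95 (r = 0.993) and SNORD110 for SNORD96A (r = 0.972). Their log2 fold changes were -0.91, 1.07, -3.04, -0.13, -1.41 and 0.17 in the same order. A high correlation therefore did not mean a change of the same size, and SNORD13 and SNORD72 differed in sign. Each r is the highest among the tested snoRNAs and was not set against a background. No member had the highest correlation with another.

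Other snoRNAs used as references were also listed, 14 in all, of which 12 had a row and 10 were tested. SNORD47 and SNORD49A were not analysed here, SNORD44 had 6 counts in all libraries together and SNORD75 none. Of the 10, 4 rose and 0 fell (edgeR), and their median log2 fold change was -0.10. By P-value alone 1 was lower, SNORD38B at -0.33, and DESeq2 also called 4 up and 0 down. The 4 that rose were SNORD58B (log2 fold change 3.70), SNORA66 (1.79), SNORD54 (1.29) and SNORD58A (0.82). The other 6, SNORD24, SNORD38B, SNORD43, SNORA74A, SNORD18A and SNORD7, had log2 fold changes from -0.33 to -0.05. SNORD24 measured 209 ± 13.9 CPM without and 202 ± 20.8 CPM with RUNX1, and SNORD43 607 ± 23.7 and 544 ± 51.6 CPM (SD, n = 3 each). With library size alone 9 of the 10 were altered, 3 up and 6 down. Among the 110 other C/D box snoRNAs tested of 265 listed, 30 rose and 32 fell, with a median of -0.12, and with library size alone 16 rose and 67 fell.

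U6, the spliceosomal RNA that is often used in the same assays, could not be compared, since RNU6-2 was counted 0, 6 and 3 times in control replicates and 5, 2 and 5 times in RUNX1 replicates, RNU6-1 had 2 counts in all and RNU6-6P none. Of 8 microRNAs used as references 7 were tested, and 3 rose and 0 fell (edgeR, 0 lower also by P-value alone and by DESeq2), whereas with library size alone 0 rose and 4 fell. With TMM miR-191-5p rose by 0.98 on the log2 scale, miR-103a-3p by 0.70 and let-7a-5p by 0.62. miR-93-5p measured 4476 ± 128 CPM without and 4454 ± 327 CPM with RUNX1 (log2 fold change -0.01, SE 0.114), and miR-25-3p at -0.12 (SE 0.108). miR-16-5p, let-7a-5p and miR-24-3p, which come from more than one locus, had at most 102 counts in a library, and how reads of several loci were counted was not given.

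The microRNA arms that the study measured by q-RT-PCR were read against each member within the same library, in the manner of a q-RT-PCR value. The ratios are of read counts, and they were not compared with an assay of the snoRNA. The study itself normalised these assays to RNU6-2 and not to a member. It chose these microRNAs among those influenced by RUNX1 in the same sequencing. The number of arms that separate the conditions therefore follows in part from that choice, also where it exceeds the share of all microRNAs. The 11 arms were miR-144-3p, miR-451a, miR-126-3p, miR-27a-3p, miR-223-3p, miR-28-3p, miR-222-3p, miR-221-3p, miR-146a-5p, miR-150-5p and miR-34a-5p. miR-150-5p, with 0, 1 and 4 counts in control, did not pass the filter on low counts, and miR-34a-5p had 2, 2 and 8. An arm was called higher or lower when all RUNX1 samples lay on 1 side of all control samples. In each of these cases the exact permutation p was 0.1, the smallest possible (0.122 adjusted over 88 tests).

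Against SNORD48, 9 arms were higher and 2 lower. Against SNORD68, 10 were higher and 0 lower, with 1 overlapping, and against SNORD95 9 were higher and 0 lower, with 2 overlapping. Against SNORD61, which rose, 5 were higher, 3 lower and 3 overlapping. Against SNORD96A 6 were higher, 2 lower and 3 overlapping, and against SNORD72 5 were higher, 2 lower and 4 overlapping. Without RUNX1 replicate 3, 9 were higher against SNORD72, 1 was lower against SNORD95, and 6 were higher and 4 lower against SNORD61. Of the 598 tested microRNAs, 41.8% were higher and 17.1% lower against SNORD48, 86.5% and 2.84% against SNORD68, 65.1% and 8.7% against SNORD95, 11.4% and 65.1% against SNORD61, 17.6% and 40.1% against SNORD96A, and 14.9% and 25.8% against SNORD72.

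miR-451a, an erythroid microRNA, changed direction with the reference. Its difference in log2 ratio, RUNX1 minus control, was -0.54 against SNORD48, -1.95 against SNORD61, -0.99 against SNORD72 and -1.45 against SNORD96A, and without overlap in each. Against SNORD68 it was 1.04 in the opposite direction, also without overlap. Against SNORD95 it was 0.04 and the groups overlapped. With TMM scaling miR-451a fell by 0.84 on the log2 scale (SE 0.154, adjusted p = 0.00132, edgeR).

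miR-144-3p, which is transcribed together with miR-451a, was higher against SNORD48 (1.34), SNORD68 (2.91) and SNORD95 (1.91) and overlapped against SNORD61 (-0.07), SNORD72 (0.88) and SNORD96A (0.42). miR-126-3p was lower against SNORD48 (-1.21), SNORD61 (-2.62), SNORD72 (-1.66) and SNORD96A (-2.13) and overlapped against SNORD68 (0.37) and SNORD95 (-0.63). miR-27a-3p was higher against SNORD68 (2.77) and lower against SNORD61 (-0.21), both without overlap. For these arms the reading differed with the member used. For miR-451a its direction did too, and for miR-27a-3p only by that narrow margin.

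The 5 arms miR-221-3p, miR-146a-5p, miR-222-3p, miR-34a-5p and miR-28-3p were higher against all 6 members. miR-221-3p ranged from 3.22 against SNORD61 to 6.21 against SNORD68 and miR-28-3p from 0.96 to 3.95. The distance between the lowest and the highest value is 2.99 for every arm by construction, since it is the change of the ratio of SNORD61 to SNORD68. Against the geometric mean of all 6 members 9 arms were higher and 2 lower.

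**Figure D5:**
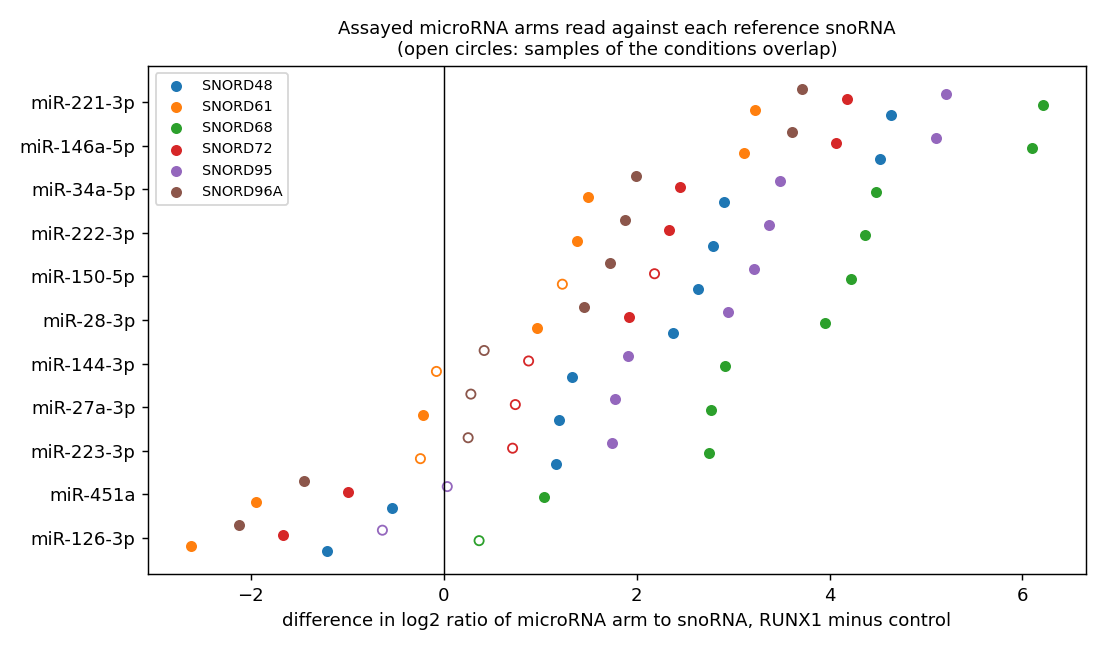
Difference in log2 ratio of 11 microRNA arms to each reference snoRNA (colours), RUNX1 minus control; open circles mark arms whose samples overlap between conditions. miR-451a runs from -1.95 against SNORD61 to 1.04 against SNORD68, whereas miR-221-3p is above 3 against every member.

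Scaling the whole table to 1 member subtracts the change of that member from every RNA, so the shares below follow from the member's own change and are given for their size. With TMM, 265 of the 545 altered small RNAs were up-regulated (48.6%). With the count of SNORD68 held constant 821 of 947 were altered and 94.4% of these were up-regulated, and with SNORD95 665 were altered, 82.1% up. With SNORD61 714 were altered and 10.5% were up-regulated, and with SNORD96A 544 were altered, 22.6% up. SNORD48 gave 549 altered (62.3% up) and SNORD72 412 (41.5% up), and the geometric mean of the 6 gave 562 (58.0% up). Among microRNAs, 519 were up and 13 down with SNORD68, 248 and 93 with SNORD48, 59 and 364 with SNORD61, and 200 and 135 with TMM.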

How the data were processed

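Small RNA was sequenced from 3 control and 3 RUNX1 K562 samples. The authors deposited whole-number counts per annotated small RNA without normalization, from TruSeq Small RNA libraries. The submitters' processing notes name CASAVA 1.8.2 and build hg19. The aligner and the handling of reads of several loci are not given in the sources used here. The study's reads were shorter than each member transcript (64 to 84 bases), so no read covered a whole member. The counts may come from fragments, and full-length snoRNA was not measured apart. The names of control and RUNX1 libraries carry different letters, which, if they mark preparations, cannot be told apart from the condition. One number recurs in the RUNX1 library names, and the titles were used. The 5 bookkeeping entries per table, all at 0, were left out.

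Counts were filtered (filterByExpr, minimum count 10, minimum total 15), TMM-scaled and fitted by quasi-likelihood (glmQLFit, then glmQLFTest) in edgeR 4.0.16 (R 4.3.3, limma 3.58.1), condition being the only term, with Benjamini-Hochberg adjustment over 947 small RNAs. The SE was obtained from the fold change and its F statistic. The common biological coefficient of variation was 0.181. P-values measure the spread between these samples. With 3 counts as the floor, the limit of detection was 0.260 to 1.43 CPM, for counting error only, which PCR copies can raise. Ratios used 0.5 added counts and exact two-sided permutation tests. Alternatives were DESeq2 1.42.0, other scalings, filters, thresholds and pseudocount, the replicate block and each replicate left out. Scaling to a member and the replicate spread without RUNX1 replicate 3 were chosen after seeing the data. The code was tested on simulated data. The members, the lists and the named small RNAs (all members, the arms of the study's assays, other reference RNAs, snoRNAs of the same host and the most similar snoRNA) were chosen with earlier results of these data known. Positions and sequences were matched by name to GENCODE 29 (GRCh38), not to the build of the counts.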

Additional observations from a re-analysis of the deposited data

How the results depend on the processing

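Of 376 alternative values of 33 results, 353 kept their call or moved little. Totals of altered RNAs were judged without regard to direction. With library size alone the microRNA references went from 3 up and 0 down to 0 up and 4 down, counted as little moved. The members went from 2 up and 2 down to 0 up and 3 down. The U6 count was 0 in every setting, and a pseudocount of 1 hardly moves ratios of large counts, so these values say little. With library size alone the log2 fold change of SNORD48 passed the thresholds at -0.99, that of SNORD61 was below the fold threshold at 0.40, SNORD72 and SNORD96A turned to -0.41 and -0.076, and 9 other reference snoRNAs were altered. With TMM on microRNAs SNORD96A was at 0.44 and not altered. At a log2 fold change of at least 1, 2 members, 0 microRNA references and 35 other C/D box snoRNAs were altered. By the SD of log2 CPM in place of the stability value SNORD48 had 0.24 and SNORD72 0.43. With the geometric mean of the members as reference 9 arms were higher and 2 lower, and with that of the other reference snoRNAs 6 and 2, whereas single members gave 5 to 10 higher and 0 to 3 lower. Scaled to SNORD68, 821 small RNAs were altered, which follows from the change of SNORD68 itself. The cause of the other shifts was not tested.

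With 1 replicate left out, where the remaining 2 share the spread of the fit, the log2 fold change ranged from -0.37 to -0.20 for SNORD48, 1.04 to 1.31 for SNORD61, -1.91 to -1.80 for SNORD68, -0.16 to 0.49 for SNORD72, -0.92 to -0.73 for SNORD95 and 0.42 to 0.90 for SNORD96A. Between 3 and 4 members were altered. Arms higher against SNORD72 were 5 to 9, and arms lower against SNORD95 were 0 to 1. Same-numbered samples deviated from their condition means with correlations of -0.03, -0.08 and 0.02, and control replicates 1, 2 and 3 correlated best with RUNX1 replicates 2, 1 and 3, so the numbers were not taken as pairs. With the replicate block 546 small RNAs and 4 members were altered, with log2 fold changes of -0.31, 1.10, -1.89, 0.15, -0.89 and 0.60 for SNORD48, SNORD61, SNORD68, SNORD72, SNORD95 and SNORD96A. The block changed no call of a member.

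Depth limits SNORD72 most among the members, with 194 counts in the shallowest library. U6 could not be compared at its low counts, and their cause was not tested.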

Other observations

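The lowest stability values against all 230 tested snoRNAs, seen only after the values were computed and so given as a description, were those of SNORA74A (0.606), SNORD102 (0.606) and SNORA14B (0.607), whereas SNORD48 had 0.641. SNORA74A is an H/ACA box snoRNA, a class that guides pseudouridylation, and measured 201 ± 9.19 CPM without and 181 ± 15.3 CPM with RUNX1 (SD, n = 3 each), with a log2 fold change of -0.15 (SE 0.127, adjusted p = 0.346, edgeR). SNORD10, a C/D box snoRNA, had 0.608 and was at 298, 311 and 290 CPM in control and 289, 298 and 246 CPM in RUNX1 replicates, where the groups overlapped.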
